A study of Homo sapiens with 6 samples.

Results

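RKO, an established cell line from a colorectal carcinoma, is described here as it stood under DMSO, the solvent control of a study that also treated the line with EZA. The members are the 3 libraries whose labels give DMSO as the treatment, of 6 libraries in the series, and the description runs across all annotated genes by abundance. No library of EZA-treated cells enters any value, and no comparison with EZA is made. The 3 libraries share the cell line, and therefore its genome, and carry the labels colon for the tissue and colorectal carcinoma cell for the cell type. The study calls its replicates biological, but the labels used here do not say how the cultures were separated, nor the DMSO dose or the time, so each spread below is that between these 3 samples.

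In the colon, stem cells at the base of the crypt divide under Wnt signals, and their offspring become absorptive colonocytes or mucus-filled goblet cells under transcription factors such as CDX2 and HNF4A. Most colorectal carcinomas keep Wnt targets on through loss of APC. RKO is known for another route: an activating BRAF mutation upstream of MEK and ERK, wild-type APC, microsatellite instability, and a methylator phenotype, in which the CpG islands of many promoters carry DNA methylation.

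Messenger RNA was enriched on oligo(dT) and sequenced without strand information. Each library held between 15343614 and 15778418 counts, the reads the authors' pipeline assigned to genes, and a count was present for 20984 to 21397 genes per library. Between genes, levels are compared on the deposited FPKM scale, which divides a count by the gene's length and the library's depth. The lengths used are not given, and the order of levels between genes depends on them. A gene is called expressed at a mean of at least 1 FPKM over the 3 libraries, and without counts when all 3 libraries hold 0. Over the 46602252 counts of the 3 libraries a count of 0 allows a share of up to 3 counts, or 0.0644 CPM (counts scaled to a common library depth), which covers counting error only. On log2 CPM with a pseudocount of 0.5, each pair of libraries correlated at 0.991 to 0.994 across 12543 genes, which are not independent replicates. Counting error alone would give a chi-square of about 1 for each degree of freedom, and the 3 pairs gave 4.75, 4.93 and 11.95, so each library was kept as its own replicate.

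Of 19831 protein-coding genes, 9845 were expressed, 49.6% of those annotated, and 5631 had no count in any library, 28.4%. A further count at the floor, at most 3 counts in the 3 libraries together, held for 6886 genes, 34.7%. These 3 percentages are the background against which each gene list below is read. Among expressed protein-coding genes the median level was 8.07 FPKM. At least 100 FPKM was reached by 319 genes and at least 1000 FPKM by 26. Reads were concentrated: 142 genes held 25% of all counts and 874 genes held 50%. Of 14734 long noncoding RNAs, 634 were expressed and 3 reached 100 FPKM. These were DUSP5-DT at 137 ± 5.03 FPKM, SNHG6 at 113 ± 0.845 FPKM and NORAD, which binds PUMILIO proteins, at 102 ± 7.12 FPKM (mean ± SD, n = 3, here and throughout), named after their values were seen. Of the exons of SNHG6, 62.4% overlap another gene.

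**Figure D1:**
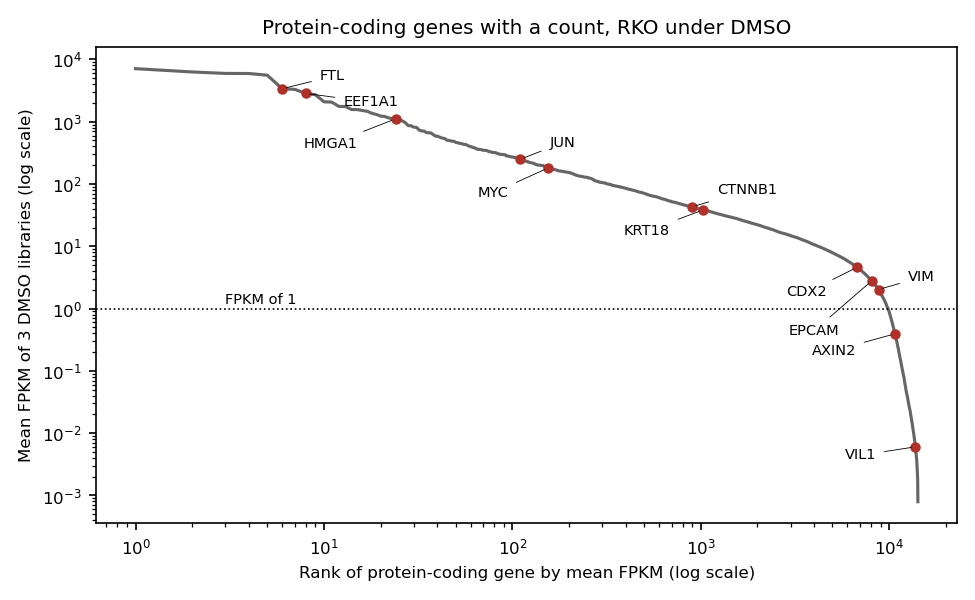
Mean FPKM of the 3 DMSO libraries (vertical axis, log scale) against the rank of each protein-coding gene with a count (horizontal axis, log scale), with 12 genes of the text marked. FTL and EEF1A1 stand near the top, CDX2, EPCAM and VIM lie just above the dotted line at 1 FPKM, and AXIN2 and VIL1 lie below it.

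The most abundant transcripts came from the mitochondrial genome and the translation machinery. Mitochondrially encoded genes took 5.02% (95% Wilson interval 5.01 to 5.03), 4.45% (4.44 to 4.46) and 4.61% (4.5999 to 4.6209) of the counts in replicates 1 to 3, so replicate 1 was highest by more than its counting error. On the per-length scale their share of the summed FPKM was 16.9% ± 0.998. Of the 20 genes with the highest FPKM, 12 were mitochondrial, led by MT-ATP6 at 7406, 6722 and 7172 FPKM and MT-CO1 at 6685, 6017 and 6145 FPKM, subunits of ATP synthase and of cytochrome c oxidase. MT-CO3 at 5954 ± 369 FPKM, MT-ND4 at 5931 ± 369 FPKM, MT-CO2 at 5574 ± 521 FPKM and MT-CYB at 3302 ± 200.4 FPKM followed, with MT-ND4L, MT-ND2, MT-ND3, MT-ND6, MT-ND5 and MT-ND1 between 1359 and 2709.8 FPKM. Replicate 1 was the highest library for both leading genes, and replicate 2 the lowest.

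Among nuclear genes the highest was FTL, the light chain of the iron store ferritin, at 3504, 3403 and 3237 FPKM. EEF1A1, which brings aminoacyl-tRNA to the ribosome, held more counts than any other gene, 814040 over the 3 libraries, and stood at 3026, 2757 and 2728 FPKM. The rest of the 20 were the ribosomal proteins RPL8 at 1753 ± 134 FPKM and RPL7A at 1510.3 ± 82.03 FPKM, the elongation factor EEF2 at 1465 ± 122 FPKM, the cytoplasmic actin ACTG1 at 1567 ± 68.5 FPKM, the chaperone HSP90AB1 at 1305 ± 41.5 FPKM and a row for the pseudogene RPS28P7 at 1632 ± 52.7 FPKM. The 84 cytosolic ribosomal protein genes together took 7.97% ± 0.116 of the counts, and 81 of them were expressed. The 18 glycolysis genes were all expressed, led by GAPDH at 861 ± 20.7 FPKM, ENO1 at 531 ± 25.6 FPKM and PKM at 345 ± 18.4 FPKM, as were all 11 measured genes of iron and redox handling, where thioredoxin TXN stood at 263 ± 26.1 FPKM.

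Below these, several high genes are named after their values were seen. HMGA1, a chromatin protein that binds AT-rich DNA, stood at 1025, 1188 and 1116 FPKM. The metallothionein MT2A stood at 970.1 ± 97.8 FPKM, the calcium-binding S100A16 at 659 ± 34.2 FPKM and S100A2 at 501 ± 10.02 FPKM, the lipolysis inhibitor G0S2 at 433 ± 13.4 FPKM, the secreted glycoprotein STC1 at 318 ± 20.4 FPKM and the laminin chain LAMB3 at 273 ± 29.4 FPKM. The 2 main thymosin genes, whose products bind actin monomers, lay far apart, TMSB10 at 1136, 1281 and 1216 FPKM and TMSB4X at 15.7, 13.6 and 13.8 FPKM, with no overlap in any library. The pseudogene RPS28P7, given above, also lay above its parent RPS28, which stood at 74.2 ± 2.91 FPKM. In counts this gap was smaller, 16522 over the 3 libraries for RPS28P7 and 7583 for RPS28. FPKM divides by the length of the row, and reads of near-identical copies can be given to either row.

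Many ribosomal protein and elongation factor mRNAs begin with a pyrimidine tract that links their translation to mTOR. The RefSeq promoter table (GRCh38.p14) gave 1 promoter each for 11300 of 19773 protein-coding genes on the autosomes and X. The letters CTTTCC or CTTTTC were searched on the coding strand within 20 bases of the annotated start. They were found at 391 of the 11300 starts, 3.46%, at 3.71% of expressed genes and at 24 of 56 ribosomal protein genes, 42.9%. On either strand the share of all starts was 5.50%, and that of the ribosomal protein genes was again 42.9%. Because they show the tract at its annotated place, 4 abundant ribosomal protein genes with a match are printed, 20 bases on each side of the start, with the matched letters in capitals. They stand at chr9:133348198-133348237 (plus strand), chr19:49487588-49487627 (plus strand), chr6:132814549-132814588 (plus strand) and chr9:124861938-124861977 (minus strand).
RPL7A: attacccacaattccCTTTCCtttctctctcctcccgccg
RPL13A: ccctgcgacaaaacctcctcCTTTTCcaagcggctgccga
RPS12: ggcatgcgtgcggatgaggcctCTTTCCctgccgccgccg
RPL35: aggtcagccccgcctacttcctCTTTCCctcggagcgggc
In these windows the tract lies across or just beside the annotated start. The levels were 1510.3 ± 82.03 FPKM for RPL7A, 1153 ± 46.4 FPKM for RPL13A, 1086 ± 71.9 FPKM for RPS12 and 864 ± 42.6 FPKM for RPL35. A match is a description of letters, not of a site in use, and the core promoter letters TATAAA, searched between 45 and 15 bases before the start, were found at 4.56% of all starts, 1.58% of expressed genes and 8 of the 100 promoters of highest FPKM.

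A low count can also come from the annotation. SUPT4H1, a transcription elongation factor used by every cell, had 1 count in the 3 libraries, and 89.9% of its exon bases overlap another annotated gene. RPS10 (1.06 ± 0.142 FPKM) and RPL36A (1.47 ± 0.1396 FPKM), parts of every ribosome, have 31.5% and 22.4% of their exon bases overlapped, the glycolytic enzyme ALDOA (2.09 ± 0.0279 FPKM) 54.2% and the ferritin heavy chain FTH1 (77.9 ± 6.49 FPKM) 63.2%. Rows named as pseudogenes held 3923 counts for RPL36A (281 of its own) and 124 for RPS10 (121 of its own). They held 112 for FTH1 (7618 of its own) and 0 for ALDOA and SUPT4H1. The part of overlap or of such copies in these counts was not tested. At least 50% overlap was found for 10.4% of protein-coding genes without counts and for 1.77% of expressed genes. The overlap is therefore given below for low genes with at least 20% of it.

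A few colon and gut transcription factors were expressed, CDX2 among them, while differentiated colon products were nearly absent. Of 20 colon and gut factors 7 were expressed, 35% against 49.6% of all protein-coding genes, and 7 had no count, 35% against 28.4%. CDX2, the factor that specifies the intestine (chr13:27960918-27969315, GENCODE 44 on GRCh38), stood at 4.48, 4.72 and 4.58 FPKM. It was alike in all 3 libraries and under the median expressed gene, and in bulk RNA fewer cells with a transcript and less transcript per cell cannot be told apart. GATA4, a factor of the proximal gut, was the highest of the list at 5.99, 5.995 and 5.71 FPKM, while the nuclear receptor HNF4G stood at 2.49 ± 0.146 FPKM and the pioneer factor FOXA1 at 2.27 ± 0.203 FPKM. GATA6 (1.92 ± 0.187 FPKM) and KLF4 (1.11 ± 0.237 FPKM) were lower. No count was found for CDX1, the sister gene of CDX2, for HNF4A, the hepatocyte and gut nuclear receptor, or for ELF3, GATA5, FOXA2 and PPARG.

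Of 26 genes of mature colonocytes 1 was expressed, 14 had no count and 20 were at the floor, 76.9% against 34.7%. The expressed gene was CA2, a cytosolic carbonic anhydrase, at 11.4, 10.8 and 9.72 FPKM. Next came CDHR5, a brush border cadherin, at 0.279 ± 0.125 FPKM and CEACAM1 at 0.135 ± 0.0194 FPKM, followed by the guanylin receptor GUCY2C at 0.0749 ± 0.0544 FPKM and CA1 at 0.0463 ± 0.0464 FPKM, so that the highest members after CA2 were all under 1 FPKM. The brush border protein VIL1 had 2 counts and the keratin KRT20 had 1, while the cadherin CDH17, the galectin LGALS4 and CEACAM5 had none; 44.2% of the exon bases of VIL1 overlap another gene. None of 22 goblet and endocrine genes was expressed, and the gel mucin MUC2 and the trefoil peptide TFF3 had no count. Of the 22, 13 had no count, 59.1% against 28.4% of all protein-coding genes. The highest was the membrane mucin MUC12 at 0.346 ± 0.0771 FPKM, before MUC1 at 0.309 ± 0.129 FPKM, the endocrine factor INSM1 at 0.162 ± 0.0574 FPKM, FCGBP at 0.0287 ± 0.00922 FPKM and CHGA at 0.0268 ± 0.0119 FPKM.

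Position along the body axis is kept in HOX genes, and here the clusters differed. In HOXA 8 of 11 genes were expressed, 72.7%, and in HOXB 9 of 10, 90%. In HOXC 5 of 9 were, 55.6%, and in HOXD 2 of 9, 22.2%, against 49.6% of all protein-coding genes. At a threshold of 2 FPKM these counts were 5, 7, 3 and 1, where 44.4% of all protein-coding genes passed. The highest members were HOXB9 at 19.02, 16.6 and 17.8 FPKM and HOXA9 at 13.6, 13.1 and 13.99 FPKM, and the 3 libraries lay close together for both. HOXB7 stood at 11.1 ± 0.977 FPKM and HOXB13, a marker of the hindgut and prostate, at 3.53 ± 0.216 FPKM. HOXC was led by HOXC8 at 5.898 ± 0.249 FPKM and HOXD by HOXD9 at 4.88 ± 0.676 FPKM. Reads of overlapping and antisense transcripts cannot be separated in these clusters without strand.

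The crypt list was mixed. Of 17 crypt and stem cell genes 10 were expressed, 58.8%, and 6 had no count, 35.3%. Of all protein-coding genes, 49.6% were expressed and 28.4% had no count. The bone morphogenetic protein co-receptor RGMB stood at 28.4, 30.8 and 29.5 FPKM, with 45.8% of its exon bases overlapped, the chaperone CLU at 25.8, 31.6 and 27.5 FPKM and the RNA-binding protein MSI1 at 18.4, 23.5 and 22.2 FPKM. The hyaluronan receptor CD44 followed at 18.3 ± 1.505 FPKM and the Polycomb protein BMI1 at 14.6 ± 1.71 FPKM. The 3 genes that define Wnt-driven crypt base cells were without counts: LGR5, the R-spondin receptor, ASCL2, the factor of the stem cell state, and OLFM4, a secreted crypt base protein. Counts were also absent for PROM1 and SMOC2.

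**Figure D2:**
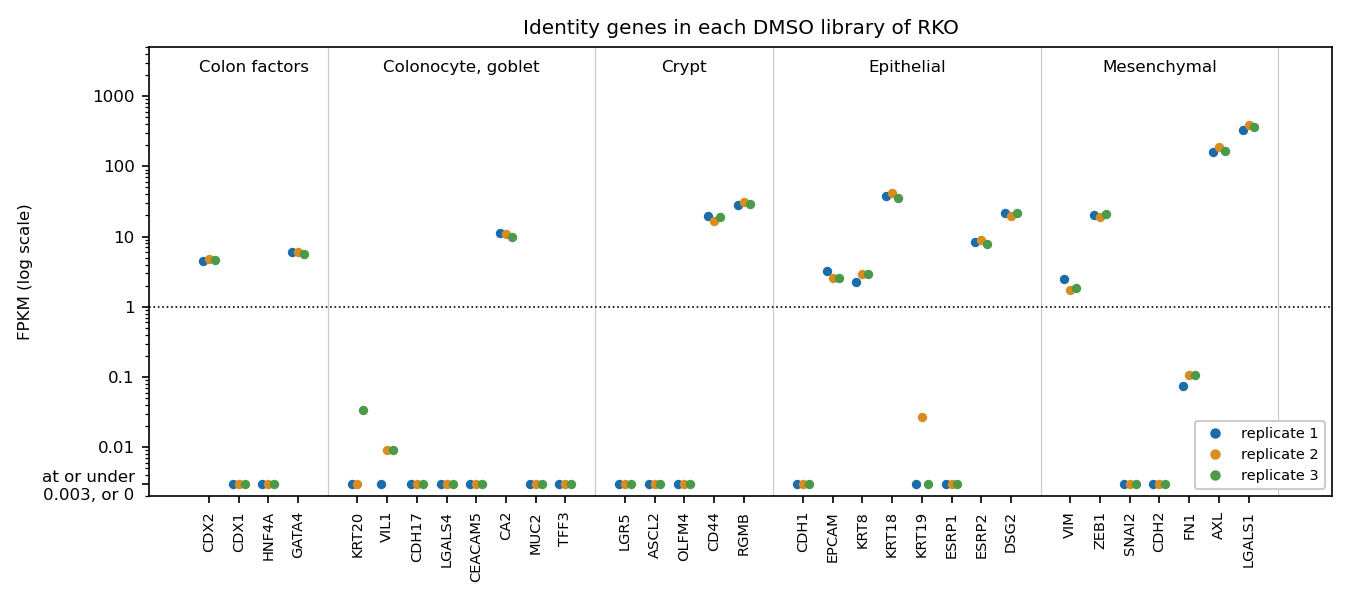
FPKM (vertical axis, log scale) of identity genes in each of the 3 DMSO libraries (1 point per library, coloured by replicate), with values of 0.003 or less, 0 included, drawn on the lowest line and a dotted line at 1 FPKM. CDX2, GATA4, KRT18, ZEB1 and AXL lie above the dotted line in all 3 libraries, while CDX1, HNF4A, LGR5, CDH1, ESRP1, SNAI2 and CDH2 lie on the lowest line.

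Neither the epithelial nor the mesenchymal list was expressed at a share above that of all protein-coding genes, 49.6%. Of 34 epithelial genes 13 were expressed, 38.2%. KRT18, a simple epithelial keratin, stood at 38.2, 41.7 and 35.2 FPKM, while its partner KRT8 stood at 2.24, 2.94 and 2.94 FPKM and KRT19 had 1 count. The desmosomal cadherin DSG2 was at 21.2 ± 1.22 FPKM, the tight junction scaffold TJP1 at 11.4 ± 0.275 FPKM, the splicing regulator ESRP2 at 8.43 ± 0.516 FPKM and the plakophilin PKP3 at 6.56 ± 1.54 FPKM. EPCAM, the surface marker of carcinoma cells, stood at 3.19, 2.59996 and 2.598 FPKM, with replicate 1 above the other 2. CDH1, which encodes E-cadherin, had no count in any library, and neither had ESRP1, GRHL2, RAB25 and OVOL1 (27.3% of exon bases overlapped), other parts of the epithelial state. Of the 34 epithelial genes 5 had no count, 14.7%, below the 28.4% of all protein-coding genes. Of 24 claudins 2 were expressed, CLDN12 at 11.5 ± 1.83 FPKM and CLDN15 at 3.68 ± 0.706 FPKM, and of 55 keratins 3, KRT18, KRT8 and KRT10.

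Of 40 mesenchymal genes 17 were expressed, 42.5%, and 13 had no count, 32.5% against 28.4% of all protein-coding genes. The calcium-binding S100A6 stood at 385 ± 13.8 FPKM and the galectin LGALS1 at 360.01 ± 33.1 FPKM. The receptor tyrosine kinase AXL stood at 157, 189 and 166 FPKM and the caveolar protein CAVIN1 at 53.5 ± 5.13 FPKM. ZEB1, which represses CDH1, stood at 20.5, 18.8 and 21.1 FPKM in replicates 1 to 3. The intermediate filament VIM, in contrast, was at 2.498, 1.72 and 1.85 FPKM, with 24.6% of its exon bases overlapping another gene, and fibronectin FN1 at 0.0744, 0.105 and 0.108 FPKM. SNAI2, ZEB2, TWIST1, TWIST2 and the cadherin CDH2 had no count, so that neither E-cadherin nor N-cadherin transcripts were detected at this depth.

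Markers of cell types other than colon were mostly under 1 FPKM. Of 69 such markers 2 were expressed, and the summed level of the 69 was 17.9 to 20.2 FPKM per library. ACTA2, which is also in the mesenchymal list, was at 1.02 ± 0.223 FPKM and lay under 1 FPKM in replicate 1, with 36.2% of its exon bases overlapped. The defining markers PTPRC (leukocytes), PECAM1 (endothelium), DCN (fibroblasts), ALB (liver) and NKX2-1 (lung, 40.7% of exon bases overlapped) had no count, and SOX10 (neural crest) had 6. By group, 0 of 18 leukocyte, 0 of 8 endothelial, 1 of 12 fibroblast and muscle, 0 of 10 neural, 0 of 9 liver and 1 of 12 lung, breast and prostate markers were expressed. The highest leukocyte marker was CD68 at 0.522 ± 0.189 FPKM, but 85.6% of its exon bases overlap another gene, so its level is uncertain. The highest of the endothelial, neural and liver groups were ESAM at 0.845 ± 0.0495 FPKM, SYP at 0.143 ± 0.0436 FPKM and APOA2 at 0.198 ± 0.229 FPKM.

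Wnt signalling works through secreted ligands that bind Frizzled and LRP receptors, which stops the APC and AXIN complex from destroying beta-catenin. Beta-catenin then joins TCF and LEF factors on target genes. In RKO most receiving and transmitting parts were expressed, while ligands, secreted inhibitors and the feedback targets named below were mostly low. Of 25 genes for ligands and their release 3 were expressed, 12%. WLS, the carrier of Wnt proteins to the cell surface, stood at 20.4, 22.8 and 21.96 FPKM and PORCN, which lipidates them, at 4.23 ± 0.624 FPKM. Of 19 Wnt proteins WNT3 alone reached the threshold, at 1.05, 1.29 and 1.28 FPKM. WNT11 stood at 0.916 ± 0.131 FPKM and WNT10A at 0.442 ± 0.189 FPKM. WNT5A and all 4 R-spondins had no count.

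Of 21 receptors and their regulators 14 were expressed, 66.7%, including 8 of 10 Frizzled genes. FZD6 stood at 23.8, 19.4 and 23.2 FPKM and the co-receptor LRP5 at 16.6, 22.8 and 19.02 FPKM, with replicate 2 lowest for FZD6 and highest for LRP5. The pseudokinases PTK7 and RYK stood at 17.96 ± 1.93 FPKM and 8.804 ± 0.878 FPKM, and FZD2 at 5.18 ± 0.355 FPKM. ZNRF3, a ubiquitin ligase that removes Frizzled from the membrane, was at 3.295 ± 0.403 FPKM. Its partner RNF43 had 5 counts over the 3 libraries, but 69.0% of its exon bases overlap another gene, as at the neighbouring SUPT4H1 above, so this level is uncertain. LGR5 had no count. None of the 11 secreted inhibitors of the SFRP, DKK, WIF1 and SOST kind was expressed, and SFRP1 and DKK1 had no count. The expressed inhibitors were KREMEN2 at 7.38 ± 1.7005 FPKM, NKD2 at 5.85 ± 0.619 FPKM, KREMEN1 at 5.01 ± 0.382 FPKM, CTNNBIP1 at 2.95 ± 0.243 FPKM and NKD1 at 1.12 ± 0.123 FPKM, which act at or inside the cell.

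Of 18 cytoplasmic members 16 were expressed, 88.9%. CTNNB1, which encodes beta-catenin, stood at 43.97, 41.8 and 42.8 FPKM, APC at 3.28, 3.78 and 3.84 FPKM and the scaffold DVL1 at 45.8, 60.1 and 54.1 FPKM. The 3 libraries lay close together for CTNNB1, while DVL1 was lowest in replicate 1. Kinase CSNK1A1 was at 22.7 ± 1.298 FPKM, with 49.3% of its exon bases overlapped, DVL3 at 19.5 ± 2.19 FPKM and the ubiquitin ligase subunit FBXW11 at 18.4 ± 1.09 FPKM. Of 13 nuclear members 10 were expressed, led by the co-repressor TLE5 at 30.2 ± 2.08 FPKM and PYGO2, which binds beta-catenin's partner BCL9, at 20.2 ± 1.47 FPKM. The co-repressors TLE2, TLE1 and TLE3 lay between 6.498 and 9.84 FPKM. Of the factors that bind DNA, LEF1 was at 6.71, 5.84 and 5.71 FPKM, TCF7L2 at 4.02, 3.796 and 4.28 FPKM and TCF7 at 2.58, 2.78 and 2.54 FPKM. LEF1 was above TCF7L2, and TCF7L2 above TCF7, in every library.

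Of 24 Wnt target genes 8 were expressed, 33.3% against 49.6% of all protein-coding genes, and 7 had no count, 29.2% against 28.4%. MYC at 171, 189 and 184 FPKM and CCND1, which encodes cyclin D1, at 51.2 ± 2.23 FPKM were the highest, and both also respond to growth factors. The 4 negative feedback targets named here were low. AXIN2 stood at 0.3405, 0.446 and 0.394 FPKM and NKD1 at 1.004, 1.25 and 1.09 FPKM. SP5 stood at 0.685, 1.22 and 0.787 FPKM and NOTUM at 0.203, 0.271 and 0.3097 FPKM. Of these 4, NKD1 alone was at 1 FPKM or above as a mean, and SP5 passed that level in replicate 2 only. ZNRF3, which also restrains the pathway and is counted with the receptors above, was expressed. AXIN2 has 25.3% of its exon bases overlapped. A threshold of 1 TPM or 1 CPM in place of 1 FPKM counted 13 or 14 of the 24 targets as expressed.

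Growth factors act through receptor tyrosine kinases, adaptors and RAS to the kinases RAF, MEK and ERK, which switch on immediate early and feedback genes. Of 25 ligands 5 were expressed, 20%. HGF, the ligand of MET that is usually made by stromal cells, was the highest at 23.8, 21.6 and 22.8 FPKM, all 3 libraries being alike. HBEGF at 3.47 ± 0.243 FPKM was the expressed member of the 7 EGF family ligands, and VEGFA (2.13 ± 0.145 FPKM), KITLG (1.51 ± 0.3599 FPKM) and PDGFA (1.096 ± 0.238 FPKM) were the others of the 5. Of 27 receptors 13 were expressed, 48.1%. Behind AXL, given above, EPHA2 stood at 74.7, 94.7 and 78.4 FPKM, MET at 26.03, 22.6 and 24.6 FPKM, ERBB2 at 12.6 ± 1.601 FPKM and FGFR1 at 12.2 ± 1.22 FPKM. EGFR was at 3.23, 3.3999 and 3.14 FPKM and ERBB3 at 1.44, 1.61 and 1.57 FPKM, so EGFR lay below MET in each library. All 4 neuregulins, which bind receptors of the ERBB family, were under 1 FPKM.

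Of 16 adaptors and RAS regulators 12 were expressed, with SHC1 at 109 ± 11.8 FPKM, GRB2 at 42.95 ± 0.334 FPKM, the phosphatase PTPN11 at 38.99 ± 1.83 FPKM, RASA1 at 10.98 ± 0.2698 FPKM and SHOC2 at 8.52 ± 0.857 FPKM. Of 24 members of the kinase cascade 19 were expressed, 79.2%. BRAF stood at 2.61, 2.198 and 2.3996 FPKM, while HRAS was at 25.5 ± 3.51 FPKM and NRAS at 24.5 ± 1.58 FPKM. MAP2K1, which encodes MEK1, stood at 25.99, 25.2 and 27.4 FPKM. The highest 2 of the cascade were the kinases downstream of ERK, RPS6KA4 at 37.1 ± 4.61 FPKM and MKNK2 at 29.3 ± 4.93 FPKM. On the FPKM scale BRAF was below HRAS and NRAS in every library. Its 2717 counts over the 3 libraries were above the 2273 of HRAS and below the 5252 of NRAS. The order of BRAF and HRAS therefore depends on the gene lengths used.

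Among the MAPK lists the targets of ERK had the highest expressed share, 29 of 33, 87.9% against 49.6%. JUN stood at 230.2, 271 and 245 FPKM, FOSL1, its partner in AP-1, at 184, 215 and 192 FPKM and PHLDA2 at 135, 180.2 and 158 FPKM. All 3 were lowest in replicate 1. The feedback inhibitor SPRY4 stood at 98.3, 111 and 103 FPKM, PHLDA1 at 71.4, 71.1 and 71.6 FPKM, the ERK phosphatase DUSP6 at 29.3, 27.2 and 27.3 FPKM and SPRY2 at 8.85 ± 0.474 FPKM. The ETS factors ETV4 and ETV5 were at 22.8 ± 1.37 FPKM and 17.5 ± 1.55 FPKM. DUSP4, another phosphatase of this pathway, was the exception among the named feedback genes at 0.237, 0.382 and 0.352 FPKM, under 1 FPKM in all 3 libraries.

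**Figure D3:**
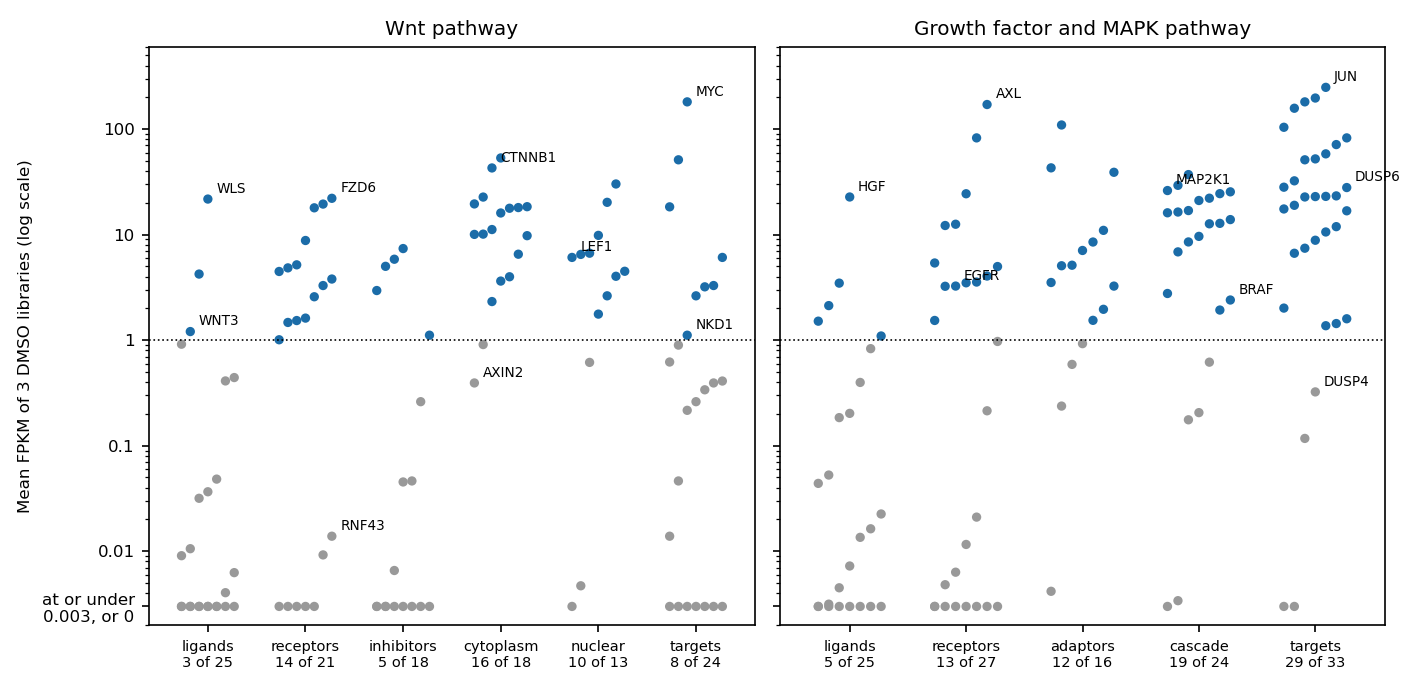
Mean FPKM of the 3 DMSO libraries (vertical axis, log scale, values of 0.003 or less drawn on the lowest line) for each gene of the Wnt and of the growth factor and MAPK lists, in columns by role. Blue points are expressed genes and grey points are not; the count of expressed genes stands under each column, from 3 of 25 Wnt ligands to 29 of 33 MAPK targets.

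Apart from the interferon list, lists for the state of the culture had 77.8% to 100% of their genes expressed, against 49.6% of all protein-coding genes. All 20 DNA replication genes and 19 of 20 G2 and M phase genes were, led by PCNA, the clamp of DNA polymerase, at 228 ± 16.3 FPKM and UBE2C, which ends mitosis, at 80.9 ± 0.521 FPKM. All 15 heat shock genes were expressed, 19 of 20 of cholesterol synthesis and uptake, among them SQLE, which epoxidizes squalene, at 30.6 ± 2.01 FPKM, and 17 of 20 of the amino acid response, led by ALDH18A1 at 88.8 ± 2.63 FPKM. Of 26 immediate early genes 23 were expressed, led by the survival factor MCL1 at 280.3 ± 9.05 FPKM, and of 18 hypoxia genes 14, led by HK2 at 46.1 ± 2.12 FPKM. The interferon list had 11 of 20 genes expressed, 55%, near the share of all protein-coding genes. BST2, also called tetherin, stood at 327, 339.9 and 322 FPKM, and all 17 type I interferon genes were without counts.

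Large families were silent almost as wholes. Of 400 olfactory receptor genes 387 had no count, 86 of 94 keratin-associated proteins, 37 of 40 beta-defensins, all 7 UGT1A and all 10 UGT2 genes, and 20 of 22 CEACAM and PSG genes. The UGT1A genes share exons, with 40.3% to 70.6% of their exon bases overlapped, so their lack of counts is uncertain. No mucin of 17 was expressed, and no HLA class II gene of 13. Cancer-testis genes, which many tumours switch on, were silent as well: 11 of 12 MAGE-A, 23 of 24 GAGE, XAGE and PAGE, and all 8 SSX genes had no count. How the authors' counting treated reads shared by near-identical copies, as in the GAGE series, was not tested. The lack of counts for such copies is therefore uncertain. MAGEB17 was the exception among 11 MAGE-B genes at 6.81 ± 1.11 FPKM, with 33.5% of its exon bases overlapped. In the protocadherin clusters, which lie side by side on chromosome 5, 0 of 15 alpha, 6 of 16 beta and 1 of 22 gamma genes were expressed, with PCDHB8 at 8.76 ± 0.858 FPKM the highest. All alpha and all gamma genes have over 20% of their exon bases overlapped, a median of 49.5% and 43.8% against 5.32% for the beta genes, so the part of the overlap in this contrast was not tested. Of 515 C2H2 zinc finger genes of the ZNF series 314 were expressed.

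Silent genes often lay next to each other. Runs of at least 8 neighbouring protein-coding genes without counts numbered 75 and held 1116 genes, 19.98% of the 5586 such genes on the autosomes and X, 335 of them olfactory receptors. The coordinates are those of GENCODE 44 on GRCh38, the build the submitters name. The longest run held 72 genes at chr11:48216810-57237250, 63 of them olfactory receptors. The next were 51 genes of the defensin and FAM90A clusters at chr8:6808517-8031818, 50 genes at chr1:247416156-248755759, 45 of them olfactory receptors, 36 genes of the keratin-associated protein cluster at chr21:30165565-31559977, and 32 genes of the UGT2B and casein clusters at chr4:68447463-70681817. Runs with many similar copies, such as the FAM90A genes, carry the same limit on shared reads as the families above. By chromosome, the expressed share ran from 35.1% on X, 41.5% on 21 and 43.6% on 11 to 55.5% on 16.

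Some silent genes had active neighbours. Both nearest protein-coding neighbours were expressed for 695 of the 5586 genes without counts, 12.4%, a single neighbour for 2055 and neither for 2836. The same share over all protein-coding genes was not computed, so 12.4% is not read as high. CDH1 (chr16:68737292-68835537) is not one of them: it had no count, and CDH3, 9.82 kb before it, was also low at 0.0633 ± 0.0254 FPKM, while TANGO6, 7.99 kb after it, was at 5.75 ± 0.377 FPKM. RUNX3 (chr1:24899511-24965121), a tumour suppressor of the gut, had no count, between CLIC4 at 31.6 ± 3.63 FPKM and SYF2 at 9.698 ± 1.47 FPKM. Low but not without counts, CDKN2A, which encodes p16 and ARF, had 11 counts, while CDKN2B beside it stood at 3.59 ± 0.0391 FPKM and MTAP at 19.9 ± 2.46 FPKM. HLTF, a helicase of DNA damage tolerance, had 1 count between GYG1 at 15.7 ± 0.476 FPKM and HPS3 at 4.77 ± 0.3804 FPKM, with 29.8% of its exon bases overlapped. These neighbours are named because of the genes they flank, not by a rule on their values.

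**Figure D4:**
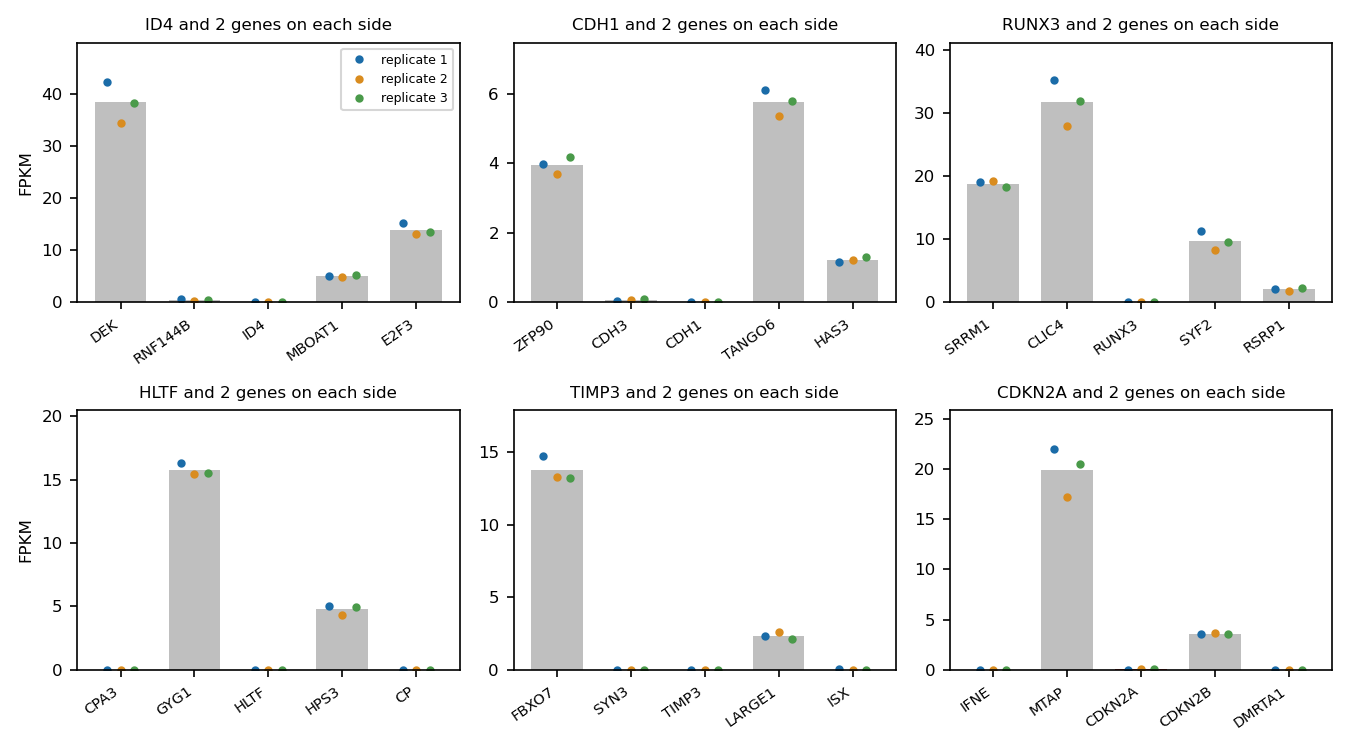
FPKM (vertical axis, linear and starting at 0) of 6 genes with few or no counts, each in the middle of its panel with 2 protein-coding neighbours on each side in chromosome order. Grey bars are means, points are the 3 DMSO libraries, and the middle gene, whose bar would be red, stands at or near 0 in every panel while at least 1 neighbour is above 2 FPKM.

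Genes known for promoter methylation in colorectal cancer were mostly silent. Of 48 such genes 28 had no count, 58.3% against 28.4%, and 33 were at the floor. Lists drawn up on another basis had similar shares without counts, 59.4% of 69 markers of other cell types and 53.8% of 26 colonocyte genes. The excess over all protein-coding genes was therefore not particular to the methylation list. Without counts were RUNX3, SFRP1, SFRP2, WIF1, TIMP3, an inhibitor of metalloproteinases, IGFBP3, which binds insulin-like growth factors, and ID4. CACNA1G, a calcium channel gene used to call the methylator phenotype, had 1 count. The checkpoint gene CHFR had 39 counts over the 3 libraries, at 0.0472 ± 0.0127 FPKM. Expressed were 8, led by the DNA repair enzyme MGMT at 11.5, 11.7 and 10.1 FPKM, DAPK1 at 7.65 ± 0.389 FPKM, GATA4, given above, RASSF1 at 4.59 ± 0.721 FPKM and TP73 at 4.15 ± 0.302 FPKM. Among mismatch repair genes, EXO1 stood at 20.1 ± 1.38 FPKM, MSH6 at 12.2 ± 0.911 FPKM, PMS2 at 3.62 ± 0.426 FPKM and PMS1 at 3.38 ± 0.28995 FPKM. Neither DNA methylation nor copy number was measured in these libraries.

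The promoters of silent genes split by kind. A promoter is called CpG-rich here when the 250 bases before and 50 after the start have a GC content of at least 50% and at least 0.6 of the CG pairs their base composition gives. Of the 11300 promoters 65.0% were CpG-rich. The share was 90.04% of 5815 expressed genes and 30.3% of 3213 genes without counts, 8.92% inside the silent runs and 36.5% outside them. Of 22 genes of the methylation list at the floor with a promoter entry, 18 were CpG-rich, 81.8%. Of 24 colonocyte and goblet genes at the floor, 2 were, 8.33%. The methylation list was drawn from genes known for their CpG islands, so its share describes that choice. The 250 bases before the start are printed for TIMP3 and ID4, silent and CpG-rich, for GPA33 and LGALS4, colonocyte genes that are silent and CpG-poor, and for CDX2, which is expressed, with every CG pair in capitals. From top to bottom they stand at chr22:32801455-32801704 (plus strand), chr6:19837120-19837369 (plus strand), chr1:167090378-167090627 (minus strand), chr19:38812946-38813195 (minus strand) and chr13:27969316-27969565 (minus strand).
TIMP3: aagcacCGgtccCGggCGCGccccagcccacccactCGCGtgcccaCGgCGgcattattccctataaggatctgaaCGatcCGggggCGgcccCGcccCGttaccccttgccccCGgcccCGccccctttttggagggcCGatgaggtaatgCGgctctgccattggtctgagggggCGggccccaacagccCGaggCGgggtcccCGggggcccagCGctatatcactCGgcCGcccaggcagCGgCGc
ID4: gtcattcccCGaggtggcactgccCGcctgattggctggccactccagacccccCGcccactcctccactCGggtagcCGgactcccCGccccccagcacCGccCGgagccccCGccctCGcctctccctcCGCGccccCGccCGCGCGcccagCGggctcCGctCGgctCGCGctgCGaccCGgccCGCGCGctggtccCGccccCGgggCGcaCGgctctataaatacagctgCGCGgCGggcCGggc
GPA33: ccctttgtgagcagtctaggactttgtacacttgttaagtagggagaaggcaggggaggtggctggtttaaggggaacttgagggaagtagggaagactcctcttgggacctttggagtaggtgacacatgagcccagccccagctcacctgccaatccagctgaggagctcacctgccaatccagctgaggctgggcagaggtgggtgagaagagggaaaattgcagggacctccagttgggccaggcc
LGALS4: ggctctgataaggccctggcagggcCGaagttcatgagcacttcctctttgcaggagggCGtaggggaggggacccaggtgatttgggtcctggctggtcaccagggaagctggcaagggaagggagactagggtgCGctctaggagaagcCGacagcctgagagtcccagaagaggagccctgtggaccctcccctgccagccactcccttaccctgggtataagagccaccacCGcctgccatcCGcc
CDX2: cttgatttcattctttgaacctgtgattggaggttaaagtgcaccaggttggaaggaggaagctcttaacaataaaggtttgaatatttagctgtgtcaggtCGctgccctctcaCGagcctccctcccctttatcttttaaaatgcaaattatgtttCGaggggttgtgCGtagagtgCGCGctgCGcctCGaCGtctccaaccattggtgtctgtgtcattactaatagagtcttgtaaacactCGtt
These windows hold 26 CG pairs for TIMP3, 34 for ID4, 0 for GPA33, 6 for LGALS4 and 10 for CDX2. TIMP3, ID4, GPA33 and LGALS4 had no count in any library, and CDX2 had 913 counts in all, so the same 0 counts came with both kinds of promoter.

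Replicates were close, and the spread between them moved with GC content. After TMM scaling, edgeR estimated a common biological coefficient of variation of 8.75% over 12777 genes. The median coefficient of variation (CV) between libraries was 8.13% at 10 to 100 CPM, where counting alone gives 4.29%, and 6.70% at 100 to 1000 CPM, where counting gives 2.00%. Across 9002 protein-coding genes of at least 10 CPM, the deviation of a library from the mean of the 3 correlated with the GC content of the transcript at a Spearman rho of -0.76 in replicate 1, 0.81 in replicate 2 and -0.15 in replicate 3, a description across genes of the same libraries. Genes with a GC content under 40% stood at 0.10, -0.14 and 0.03 on the log2 scale in replicates 1 to 3, and those over 60% at -0.17, 0.16 and 0.01. With this trend removed, an alternative added after seeing the data, the common coefficient of variation was 4.82%.

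**Figure D5:**
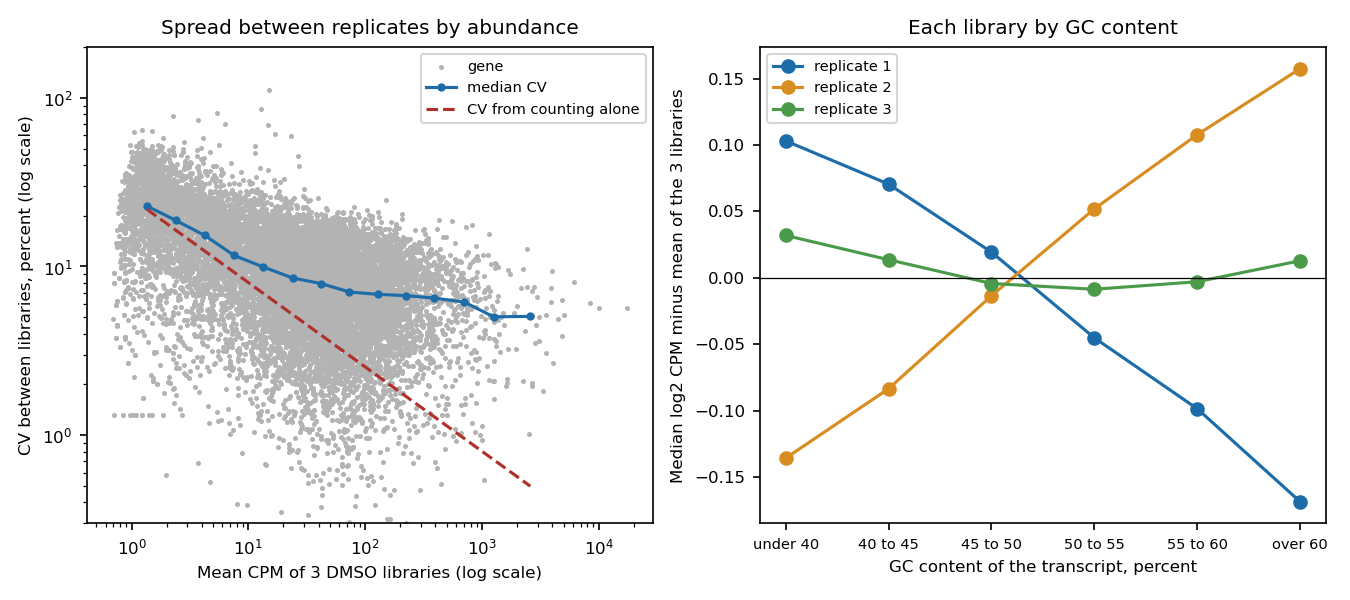
Left, the CV between the 3 DMSO libraries in percent against mean CPM, both on log scales, with a grey point per gene, the median per abundance bin in blue and the value from counting alone as a dashed red line. Right, the median log2 CPM of each library minus the mean of the 3, by GC content of the transcript; replicate 1 runs from 0.10 down to -0.17, replicate 2 from -0.14 up to 0.16, and replicate 3 stays near 0.

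Several lists moved with this trend, here over their genes of at least 10 CPM. The receptor list of the MAPK pathway had median deviations of -0.12, 0.14 and -0.03 on the log2 scale in replicates 1 to 3 over 13 genes, and the MAPK targets -0.09, 0.06 and 0.01 over 26, whereas mismatch repair, with a median transcript GC content of 41.9%, had 0.11, -0.10 and -0.01 over 6. AXL, EPHA2, LRP5, DVL1, JUN, FOSL1 and PHLDA2 were lowest in replicate 1 and highest in replicate 2, and FZD6, CD44, MET and BRAF were lowest in replicate 2. Other lists differed less. HOXB genes, with a median GC content of 55.7%, had -0.03, -0.03 and -0.05 over 7, the methylation list, with 59.9%, had -0.02, 0.08 and -0.03 over 7, and DNA replication genes, with 50.2%, had 0.02, 0.02 and 0.00 over 20. The part of GC content in any single gene was not tested.

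Among 7630 genes of at least 20 CPM the median CV was 7.40%, 2202 exceeded 10% and 64 exceeded 20%. Near-identical copies led the list. GTF2IP1, a pseudogene of GTF2I whose exons lie wholly within another annotated gene, had 215, 256 and 597 counts, a CV of 59.7%. GTF2I itself had 1257, 1213 and 1251 counts. EIF3C, a subunit of translation initiation factor 3, had 300, 312 and 621 counts, while its copy EIF3CL had 382, 243 and 62, high where EIF3C was low. SMN1, the gene of spinal muscular atrophy, had 233, 519 and 507 counts. Its copy SMN2 had 158, 126 and 149, at 2.98 ± 0.306 FPKM. Next were LSM12P1 and EEF1A1P6, processed pseudogenes, and GTF2F2, ENDOG, GTF2H2C, FAM98C and ZNF865, with CVs of 25.3% to 32.8%. How the authors' counting shared reads between copies was not tested, so these levels are uncertain.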

How the data were processed

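Poly(A) RNA of 3 RKO samples under DMSO was measured. Per the labels' protocols, non-stranded libraries were made with the NEBNext Ultra kit from RNA enriched on oligo(dT) beads. GRCh38 is the build, and HISAT2, featureCounts, DESeq2 and FastQC are the tools, per the submitters' processing notes, which give neither versions nor the annotation. The deposited table holds whole-number counts per gene and, per the file headers, the authors' FPKM. Of its 58735 rows, 58207 matched GENCODE 44 by identifier and 41937 a symbol. TPM was computed from FPKM, and CPM, TMM factors and dispersion came from edgeR 4.0.16 (R 4.3.3) after filterByExpr with a minimum of 10 counts. The dispersion step was tested on simulated data. Exon overlap was computed with bedtools 2.31.1. At 15343614 to 15778418 counts per library, depth limits genes near 3 counts. The table's EZA columns and the DESeq2 results were not used here, and no hypothesis test was run. Members and lists were chosen with earlier results of these data known. Named were the 20 genes of highest FPKM, the 5 highest genes of each list with defining genes, the 10 most variable genes, the 5 longest silent runs and the families. Others named had their values seen first, and some genes that fall under the rule are not reported here.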

Additional observations from a re-analysis of the deposited data

How the results depend on the processing

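No paired analysis was possible because 1 group of 3 libraries is described and no value comes from a test. The count of expressed protein-coding genes ran from 8801 at 2 FPKM to 11002 at 1 TPM, and without 1 replicate each it ran from 9826 to 9863. Genes without counts numbered 5935 to 5970 and runs of silent genes 78 to 82 with 1 library left out, and 6886 and 103 with at most 3 counts allowed. The share of the 100 leading genes was 21.6% of counts, 18.9% without mitochondrial genes and 36.4% of the summed FPKM. The mitochondrial share was 4.69% of counts and 16.9% of the summed FPKM, which weights short genes more. The common coefficient of variation was 8.74% to 8.89% under other scalings or no filter, 6.55% to 11.6% with 1 library left out and 4.82% with the GC trend removed. With the stricter CpG limits (0.75 and 55%) 19.2% of genes without counts had a CpG-rich promoter. Thresholds of 1 TPM and 1 CPM counted 6 Wnt ligands each, 13 and 14 Wnt targets and 2 goblet and endocrine genes each as expressed. At 1 CPM, 2 colonocyte genes and 8 MAPK ligands passed, and at 2 FPKM 3 MAPK ligands did. These settings change the threshold, and CPM also does not divide by gene length. FTL, at 3381 FPKM, stood at 11920 TPM, so 1 TPM is a lower limit than 1 FPKM. The cause of each move was not tested. Depth limits every statement on genes at or under 3 counts. The part of overlapping exons in the levels of RNF43, FTH1 and ALDOA was not tested, so these levels are uncertain.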
